A study of Mus musculus with 6 samples.

Results

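The immediate early genes Egr1, Egr2, Egr3, Fos, Fosb, Fosl1, Jun, Junb, Ier2 and Ier3 were followed through 6 libraries of mouse embryonic stem cells (ESCs). They were chosen by name, and all 10 had a row in at least 1 of the 6 gene tables, which together hold 18857 genes. Polyadenylated RNA was sequenced from KH2 cells, an ESC line on a C57BL/6 x 129 background. All 6 libraries come from this line. Wild type KH2 cells were sampled untreated and after 48 hours with PD0325901 (PD), an inhibitor of Mek, the kinase that activates Erk. The line labelled iErk1; Erk KO was sampled with doxycycline (Dox), after 48 hours and after 96 hours without Dox, and after 96 hours without Dox with PD present during the last 48 hours. Each condition is 1 library, so differences between single libraries have no replicate check. The labels used here do not give the dose of PD, the use of feeder cells, or how many clones of the Erk KO line were used.

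Immediate early genes are transcribed within minutes of a signal, without new protein synthesis. Erk phosphorylates the ternary complex factors, which sit with serum response factor (Srf) on CArG boxes, while Creb-type factors act through cAMP response elements. Fos, Fosb, Fosl1, Jun and Junb encode subunits of the AP-1 transcription factor, Egr1, Egr2 and Egr3 encode zinc finger transcription factors, and Ier2 and Ier3 encode small regulators of growth and survival. Erk signalling primes ESCs for differentiation, and its inhibition is a standard way to hold them in the naive state. The comparison of interest was Mek inhibition against withdrawal of Dox from the Erk KO line.

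The 250 bases before the annotated transcription start show what sequence elements these genes carry there. RefSeq promoter windows (build GRCm38.p6, a later build than that of the deposited tables) were held for 6 of the 10 genes: Egr2, Fos, Fosb, Jun, Junb and Ier3. The windows shown are of Fos and Fosb, which were lower without Dox, of Egr2, which holds a CArG box, of Jun, which kept its level without Dox, and of Ier3, which was higher after 96 hours without Dox. Capitals mark a CArG box (CC, 6 bases of A or T, GG), TGACG (the first part of the cAMP response element TGACGTCA), a GC box (GGGCGG) or TATAAA, each on either strand.
Fos, chr12:85473640-85473889, plus strand: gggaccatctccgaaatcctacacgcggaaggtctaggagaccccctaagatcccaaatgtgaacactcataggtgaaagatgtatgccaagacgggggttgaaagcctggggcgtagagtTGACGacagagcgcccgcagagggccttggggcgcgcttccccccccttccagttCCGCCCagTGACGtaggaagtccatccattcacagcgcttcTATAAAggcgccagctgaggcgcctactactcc
Fosb, chr7:19310046-19310295, minus strand: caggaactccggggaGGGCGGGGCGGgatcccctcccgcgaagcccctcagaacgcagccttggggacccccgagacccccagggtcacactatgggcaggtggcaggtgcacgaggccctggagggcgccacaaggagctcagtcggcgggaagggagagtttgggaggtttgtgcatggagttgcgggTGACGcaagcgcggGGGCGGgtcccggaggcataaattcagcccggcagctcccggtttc
Egr2, chr10:67537619-67537868, plus strand, 1 of 5 annotated starts: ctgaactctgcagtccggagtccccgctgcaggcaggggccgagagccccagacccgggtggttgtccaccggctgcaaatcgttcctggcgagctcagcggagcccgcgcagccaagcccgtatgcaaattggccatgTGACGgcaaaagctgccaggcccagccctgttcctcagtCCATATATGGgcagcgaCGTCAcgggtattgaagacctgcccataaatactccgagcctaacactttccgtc
Jun, chr4:95052223-95052472, minus strand: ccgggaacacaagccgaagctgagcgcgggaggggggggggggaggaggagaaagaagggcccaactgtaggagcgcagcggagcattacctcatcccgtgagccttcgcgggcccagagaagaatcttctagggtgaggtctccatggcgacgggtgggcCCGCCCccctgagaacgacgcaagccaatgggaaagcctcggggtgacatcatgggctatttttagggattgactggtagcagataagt
Ier3, chr17:35821463-35821712, plus strand: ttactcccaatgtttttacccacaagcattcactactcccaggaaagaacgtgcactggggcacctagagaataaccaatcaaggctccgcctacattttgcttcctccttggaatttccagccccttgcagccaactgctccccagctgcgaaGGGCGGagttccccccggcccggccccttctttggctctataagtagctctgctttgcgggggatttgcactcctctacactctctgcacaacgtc

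The Fos window held 2 copies of TGACG, a GC box and, 33 to 28 bases before the start, TATAAA. The Egr2 window held CCATATATGG at 72 to 63 bases before the start, between 2 copies of TGACG, the second on the other strand. TGACG was present in a window of Egr2, Fos, Fosb and Junb and absent from those of Jun and Ier3, whose only match among the motifs searched was a GC box. Over the 32851 windows of the table, 17.8% held TGACG, which was added to the search after the sequences were seen. The 6 genes have 10 windows, 5 of them of Egr2 and partly overlapping, and 6 of the 10 held TGACG. A CArG box was found in 1.47% of all windows and, among the 6 genes, in Egr2 alone, in 4 of its 5 windows. Bases further upstream were not searched, so its absence from a window does not show that a gene lacks one. A GC box was found in 32.7% of all windows and in 6 of the 10 windows of these genes. By gene that is 5 of the 6, Junb being the exception. TATAAA was found in 12.4% of all windows and in Fos alone. The ETS motif CCGGAA, in 12% of windows, was found for another start of Egr2. The whole element TGACGTCA (1.55% of windows), the AP-1 motif TGANTCA (6.75%) and the EGR motif GCGTGGGCG (0.536%) were found in none of the 6 genes. A motif match describes these letters only and does not show binding.

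The libraries held between 9.05 and 9.95 times 1e6 uniquely mapped reads. Mapk3, the Erk1 gene, was at 56.4 and 52.8 RPKM in KH2 cells without and with PD, at 14.8 in Erk KO cells with Dox, and at 6.86, 6.75 and 9.18 in the 3 libraries without Dox. RPKM are reads per kilobase of gene and 1e6 reads. The reads left do not show whether a protein is made. All 10 ESC markers checked had reads in every library. So had all 23 fibroblast markers, whose summed level was 1236 RPKM in KH2 cells, 4152 with PD, 568, 556 and 628 in Erk KO cells with Dox and after 48 and 96 hours without it, and 1527 with PD. In bulk RNA, more cells of a type and more RNA per cell cannot be told apart. The KH2 tables carry a symbol column and the 4 Erk KO tables do not, so the cell line and the making of the table cannot be told apart.

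Per length of gene, Egr1, Fos and Ier2 were the most abundant immediate early genes in untreated KH2 cells, and Egr2, Fosl1 and Egr3 were the least abundant. Egr1 was at 168 RPKM in KH2 cells, 214 with PD, 45.7 in Erk KO cells with Dox, 2.11 and 7.95 after 48 and 96 hours without Dox, and 12.2 after 96 hours with PD added. Fos, in the same order, was at 84.0, 163, 35.8, 10.03, 9.06 and 15.5 RPKM. Fosb was at 33.3, 62.05, 9.64, 4.03, 2.07 and 4.71 RPKM. All 3 genes were highest in KH2 cells with PD and lower in every Erk KO library without Dox than in Erk KO cells with Dox.

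**Figure D1:**
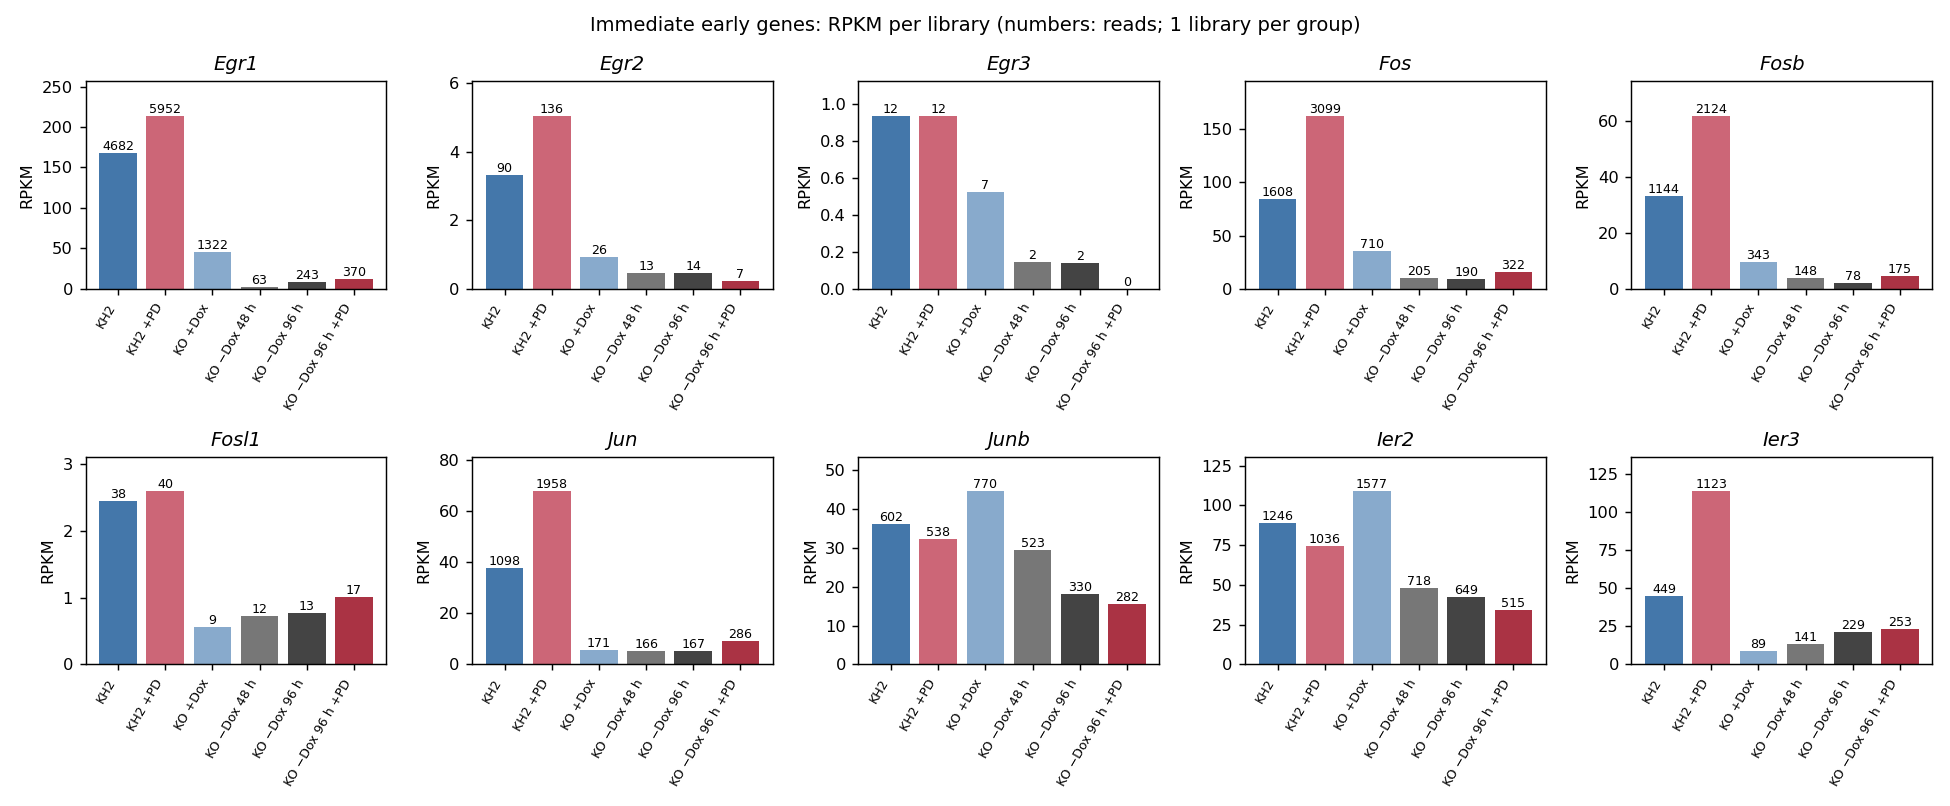
Bars give RPKM in each of the 6 libraries, 1 panel per gene with its own axis from 0, and the number above a bar is its reads. Egr1 goes from 214 RPKM in KH2 cells with PD to 2.11 after 48 hours without Dox, while Junb lies between 15.6 and 44.5.

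Jun and Ier3 followed another order. Jun was at 37.9 RPKM in KH2 cells, 67.9 with PD, and 5.70, 5.37 and 5.26 in Erk KO cells with Dox and after 48 and 96 hours without it, then 9.13 with PD. Ier3 was at 45.3, 114, 8.68, 13.3, 21.1 and 23.6 RPKM in the order of the libraries above. For Jun, the large step lay between the cell lines and not between Dox states, and for Ier3 the lowest library was that of Erk KO cells with Dox.

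Junb and Ier2 were alike in being highest in Erk KO cells with Dox. Junb, the AP-1 subunit often opposed to Jun in growth control, was at 36.0 RPKM in KH2 cells, 32.3 with PD, 44.5 in Erk KO cells with Dox, 29.3 and 18.02 after 48 and 96 hours without Dox and 15.6 with PD added. Ier2 was at 89.0, 74.3, 109, 48.0, 42.3 and 34.0 RPKM. In both cell lines the library with PD was the lower of its pair for these genes. Ier2 was the most abundant of the 10 genes in all 4 Erk KO libraries.

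Egr2, Egr3 and Fosl1 had few reads. Egr2 had 90 reads in KH2 cells and 136 with PD, then 26, 13, 14 and 7 in the Erk KO libraries, which is 3.33 and 5.06 RPKM and then 0.93 to 0.24. Fosl1 counts were 38 without and 40 with PD in the KH2 line, and 9, 12, 13 and 17 in the Erk KO libraries. Egr3 had 12, 12, 7, 2 and 2 reads and none in Erk KO cells after 96 hours with PD, which allows up to 0.216 RPKM at a floor of 3 reads. For Fosl1 the interval of counting error included 1 in all 4 pairs with PD or without Dox, as it did for Egr3 in the 3 of these pairs where both libraries had reads, so no difference was detectable at this depth.

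Reads also covered less of the low genes. They covered 99.3% of the length of Egr1 in untreated KH2 cells and 50.1% after 48 hours without Dox, by the deposited coverage. Fosl1 shares bases with Ccdc85b and Egr2 with the long noncoding RNA Gm32255 in the RefSeq annotation. The counts are not stated to use strand, so reads there may belong to either gene.

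PD in wild type KH2 cells was accompanied by higher levels of Fos, Fosb, Jun and Ier3, and by slightly higher Egr1. Ier3 was 2.51-fold higher (95% interval of counting error 2.25 to 2.81), Fos 1.94-fold (1.82 to 2.06), Fosb 1.86-fold (1.73 to 2.01), Jun 1.79-fold (1.66 to 1.93) and Egr1 1.28-fold (1.23 to 1.33). Egr2 was at 1.52-fold (1.15 to 2.0). Ier2 was at 0.835-fold (0.768 to 0.908), and Junb at 0.898-fold (0.798 to 1.01). These intervals cover counting error only and leave out differences between cultures.

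Calls between single libraries used a rule of size: 0.5 was added to each RPKM, the log2 ratio had to reach 1 in either direction, and the interval of the fold had to leave out 1. In addition the pair needed 20 reads or more in sum, and its higher member an RPKM of 1 or more. Genes that met both limits are referred to as compared, or as having enough reads. Of the 9 immediate early genes with enough reads, Ier3 passed as higher and none as lower. Among the 12787 genes with enough reads, 3.86% passed as higher and 1.22% as lower. The median log2 ratio of the 10 genes was 0.44, against −0.02 over all genes compared. Medians of the 10 genes and of the other gene lists include members without enough reads, as do list sizes unless stated. Shares and medians of all genes leave such genes out.

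PD in Erk KO cells after 96 hours without Dox was accompanied by higher Egr1, Fos, Fosb and Jun, from lower levels than in KH2 cells. Fosb was at 78 reads without and 175 with PD, or 2.27-fold (1.73 to 3.01). Jun was at 167 and 286 reads, 1.73-fold (1.43 to 2.11), Fos at 190 and 322 reads, 1.72-fold (1.43 to 2.06), and Egr1 at 243 and 370 reads, 1.54-fold (1.31 to 1.82). Ier3 was at 229 and 253 reads, 1.12-fold (0.932 to 1.34), so that its difference lay within counting error here. Ier2 was at 0.803-fold (0.714 to 0.903) and Junb at 0.865-fold (0.735 to 1.02).

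Of 8 immediate early genes with enough reads in this pair, Fosb passed the size rule as higher and none as lower. Of 11920 genes compared, 1.34% passed as higher and 0.587% as lower. The median log2 ratio of the 10 genes was 0.21, against 0.01 over all genes compared. With a pseudocount of 1 in place of 0.5, the log2 ratio of Fosb was 0.89 and no immediate early gene passed.

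An effect of PD common to both pairs was tested by edgeR's quasi-likelihood method on the 4 libraries, blocking on cell state, with Benjamini-Hochberg adjustment over 14782 genes. Fosb (log2 fold change 0.996 ± 0.117 SE, adjusted p = 4.51e-05), Fos (0.89 ± 0.108, adjusted p = 6.32e-05) and Jun (0.83 ± 0.108, adjusted p = 0.000124) rose with PD. So did Ier3 (0.83 ± 0.198, adjusted p = 0.0158) and Egr1 (0.47 ± 0.102, adjusted p = 0.00905). For Ier3 this is a mean over unlike pairs, 2.51-fold in KH2 cells and 1.12-fold, within counting error, in Erk KO cells. Ier2 (−0.28 ± 0.102, adjusted p = 0.1) and Junb (−0.18 ± 0.120, adjusted p = 0.422) did not pass, nor did Egr2, Egr3 and Fosl1. Thus 5 of the 10 genes passed as higher and none as lower, where 6.05% of all genes passed as higher and 2.92% as lower. At an unadjusted p under 0.05 there were 6 of 10, the sixth being Ier2 as lower, beside 3327 of the 14782 genes in either direction.

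The number of these calls depended on the model. DESeq2 called 3 of the 5 genes, Fos, Fosb and Jun, with adjusted p = 0.119 for Egr1 and 0.866 for Ier3. In a fit to all 6 libraries, whose spread includes the difference between 48 and 96 hours without Dox, the smallest adjusted p of the effect of PD was 0.0597 for Jun and 0.0777 for Fos.

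No difference in the effect of PD between the Erk KO and KH2 pairs was detected. In an edgeR fit with that difference as a term, added after the data were seen, none of 15103 genes passed and 129 had an unadjusted p under 0.05, none of them among the 10. Its smallest unadjusted p among the 10 genes was 0.0746, for Ier3, at a log2 difference of −0.91 ± 0.469. With 1 residual degree of freedom, this does not show that the effects were alike.

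Withdrawal of Dox from Erk KO cells was accompanied by lower Egr1, Fos, Fosb and Ier2. After 48 hours, Egr1 went from 1322 reads to 63 and was 21.6-fold lower (16.8 to 28.3). Fos went from 710 to 205 reads, 3.57-fold lower (3.05 to 4.19), Fosb from 343 to 148, 2.39-fold lower (1.97 to 2.92), and Ier2 from 1577 to 718, 2.27-fold lower (2.07 to 2.48). Junb was 1.52-fold lower (1.36 to 1.7) and did not pass. Jun, at 0.941-fold (0.756 to 1.17), lay within counting error, and Ier3 was 1.54-fold higher (1.17 to 2.03) without passing.

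Of the 7 immediate early genes with enough reads at 48 hours, 4 passed as lower and none as higher. Egr2, at 26 reads with Dox and 13 without, was under 1 RPKM in both libraries and so was not compared. It was at 2.06-fold lower (1.02 to 4.37). Of 11385 genes compared, 2.13% passed as lower and 2.77% as higher. The median log2 ratio of the 10 genes was −0.63, against −0.03 over all genes compared.

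After 96 hours Fosb and Junb were lower still, while Egr1 was less far below its level with Dox. Egr1 was 5.76-fold lower than with Dox (5.02 to 6.63), Fosb 4.65-fold (3.63 to 6.03), Fos 3.95-fold (3.36 to 4.66), Ier2 2.57-fold (2.34 to 2.82) and Junb 2.47-fold (2.17 to 2.82). Ier3 was 2.43-fold higher (1.90 to 3.14), and Jun was at 0.923-fold (0.741 to 1.15). Among 7 immediate early genes with enough reads, 5 passed as lower and 1, Ier3, as higher. Of 11804 genes compared, 2.07% passed as lower and 7.62% as higher. The median log2 ratio of the 10 genes was −0.98, against 0.05 over all genes compared. Scaling by TMM, which uses most genes in place of the read total, moves log2 ratios of this pair by −0.11 before 0.5 RPKM is added, and those of low genes by less after it.

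The 2 times without Dox differed most in Egr1, which was 3.76-fold higher after 96 than after 48 hours (2.84 to 5.04). Ier3 was 1.58-fold higher (1.28 to 1.97), Fosb 1.95-fold lower (1.47 to 2.59) and Junb 1.63-fold lower (1.41 to 1.87). Fos and Jun were within counting error of their level at 48 hours. Both time points are set against the same library with Dox, and each is 1 library.

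**Figure D2:**
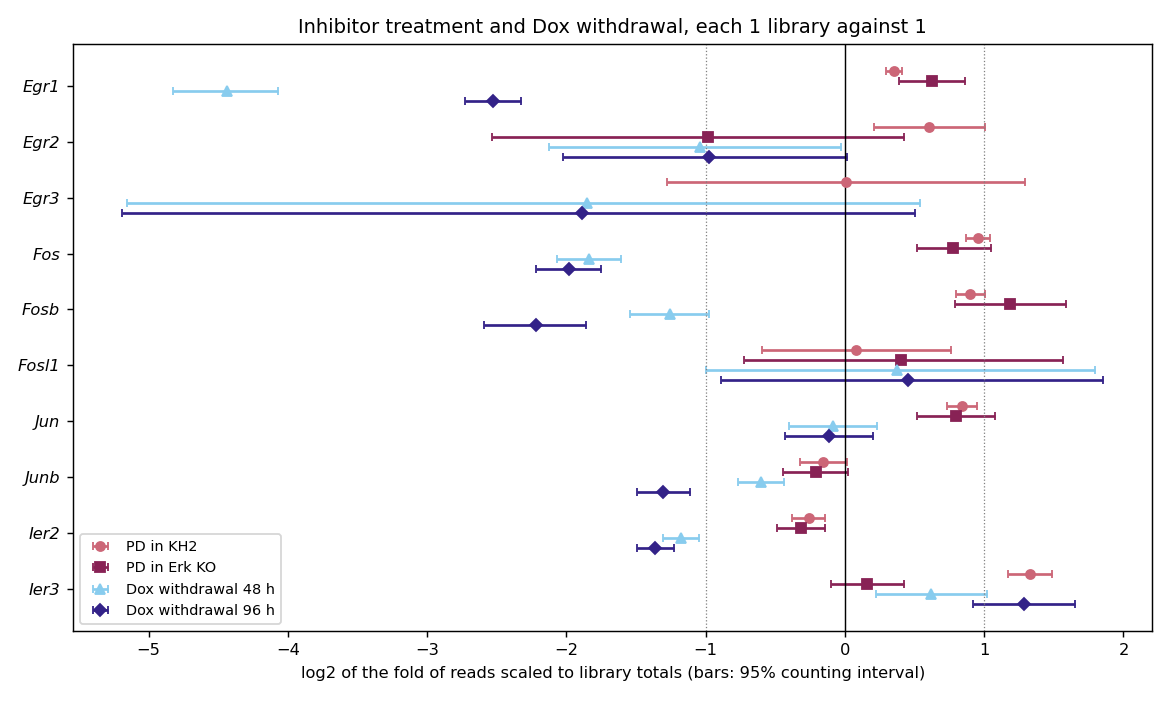
Points give the log2 fold of reads, scaled to library totals, for each of the 10 genes with PD in both cell lines and after 48 and 96 hours without Dox, bars give 95% intervals of counting error, and dotted lines mark folds of 2. Fos, Fosb and Egr1 lie above 0 with PD and below 0 without Dox; Egr3 with PD in Erk KO cells is left out because it had no reads.

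Taking the times without Dox as 1 state in an edgeR fit to all 6 libraries, Fos (log2 fold change −2.0 ± 0.179 SE, adjusted p = 0.0325) and Ier2 (−1.34 ± 0.175, adjusted p = 0.0492) fell. Egr1 (−3.09 ± 0.515, adjusted p = 0.0621) and Fosb (−1.75 ± 0.340, adjusted p = 0.079) did not pass. Egr1 passed when either time was left out, with adjusted p = 0.0104 without the 96 hour library. Junb (−1.02 ± 0.308, adjusted p = 0.198), Ier3 (0.79 ± 0.364, adjusted p = 0.355) and Jun (−0.17 ± 0.183, adjusted p = 0.695) did not pass. Of 15103 genes, 0.0993% passed as lower and 0.132% as higher, beside 2 of the 10 genes as lower and none as higher. At an unadjusted p under 0.05 there were 6 of the 10, beside 2327 of all genes in either direction. Without the 48 hour library, 6 of the 10 genes were called lower and Ier3 higher, beside 1836 and 2097 of all genes. Without the 96 hour library, 4 of the 10 were called lower, beside 55 genes lower and 74 higher.

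The inhibitor and Dox withdrawal were set against each other as a contrast within that fit. PD was given to wild type KH2 cells and to Erk KO cells already without Dox. Dox was withdrawn from the Erk KO line only. No library had PD in Erk KO cells with Dox, so treatment and starting state cannot be told apart in this contrast. Libraries without Dox and without PD enter both effects. The library with Dox is the only one of its state, so the spread used for withdrawal and for this contrast holds none of its variation. The effect of PD exceeded that of withdrawal by 2.78 ± 0.269 on the log2 scale for Fos (edgeR adjusted p = 0.0353). The difference was 3.91 ± 0.791 for Egr1 (adjusted p = 0.267), 2.47 ± 0.503 for Fosb (adjusted p = 0.27), 0.95 ± 0.260 for Ier2 (adjusted p = 0.472) and 0.93 ± 0.253 for Jun (adjusted p = 0.461), none of which passed. It was 0.03 ± 0.494 for Ier3 and 0.56 ± 0.454 for Junb, with adjusted p of 1 and 0.944. Fos was the only one of the 10 genes to pass, where 0.0662% of 15103 genes passed with PD higher and 0.0132% with PD lower. At an unadjusted p under 0.05 there were 5 of the 10, all with the effect of PD the higher, beside 987 of all genes in either direction. Without the 48 hour library, 7 of the 10 genes passed with PD higher, beside 741 of all genes in place of 10, and without the 96 hour library 2 did, beside 18.

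**Figure D3:**
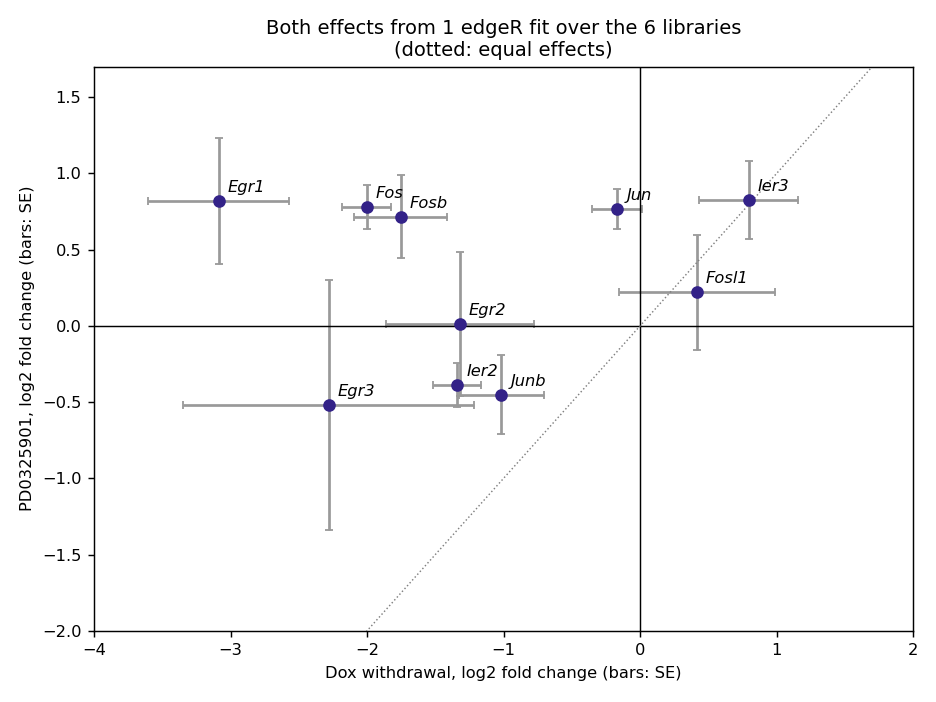
Log2 fold change with PD on the vertical axis against that with Dox withdrawal on the horizontal axis, from the edgeR fit to all 6 libraries, with bars for SE and a dotted line where both are equal. Fos stands at 0.78 for PD and −2.0 for withdrawal, and Ier3, at 0.82 and 0.79, lies next to the dotted line.

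The genes differed in their signs over the 4 pairs with PD or without Dox. Fos was 1.94-fold and 1.72-fold with PD in KH2 and Erk KO cells, and 3.57-fold and 3.95-fold lower after 48 and 96 hours without Dox. Fosb and Egr1 had the same signs in these pairs. Ier2 and Junb were below their reference library in all 4 pairs, Ier3 was above it in all 4, and Jun was above it with PD only. The pair with PD in KH2 cells shares no library with the withdrawal pairs, whereas the Erk KO pair uses the 96 hour library of the withdrawal pair as its reference.

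With PD at 96 hours without Dox, Egr1, Fos and Fosb were still below their level in Erk KO cells with Dox. Against Erk KO cells with Dox, the library with PD and without Dox was 3.73-fold lower for Egr1 (3.32 to 4.20), 2.30-fold lower for Fos (2.02 to 2.64) and 2.05-fold lower for Fosb (1.7 to 2.47). Ier2 was 3.20-fold lower and Ier3 was 2.72-fold higher in the same comparison. Summed over the 10 genes, the level was 500 RPKM in KH2 cells, 736 with PD, 261 in Erk KO cells with Dox, 113 and 107 after 48 and 96 hours without it and 116 with PD. Egr1 made up 33.5% of that sum in KH2 cells and 1.86% after 48 hours without Dox.

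Erk KO cells kept with Dox did not have the levels of wild type KH2 cells. Jun was 6.65-fold lower (5.65 to 7.86), Ier3 5.22-fold (4.15 to 6.63), Fosl1 4.37-fold (2.08 to 10.3), Egr1 3.67-fold (3.45 to 3.90), Egr2 3.58-fold (2.29 to 5.78), Fosb 3.45-fold (3.06 to 3.91) and Fos 2.34-fold (2.15 to 2.56). Junb was 1.24-fold higher (1.11 to 1.38) and Ier2 1.22-fold higher (1.13 to 1.32). Of 9 immediate early genes with enough reads, 7 passed as lower and none as higher, beside 21.4% of 12421 genes as lower and 2.75% as higher. The median log2 ratio was −1.45 for the 10 genes and −0.37 over all genes compared. TMM scaling moves log2 ratios of this pair up by 0.41 before 0.5 RPKM is added, and those of low genes by less after it. With it, Fos, at −0.82, no longer passed and the other 6 did.

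Over the 6 libraries, log2 levels of Fos and Fosb had a Pearson correlation of 0.99, those of Fosl1 and Jun of 0.98, those of Egr1 and Fos of 0.96 and those of Junb and Ier2 of 0.94. That of Junb and Ier3 was −0.02. These are descriptions over 6 libraries of different states, whose 2 cell lines set much of the spread, and 36 pairs of 9 genes were computed. Among genes with at least 200 reads, Hspb11, Ift46 and Fam53a were most like Egr1 (r = 0.998 for the first), and Rap1gds1, Mcc and G6pc3 most like Fos (0.996). Ddr1, Smdt1 and Gpc1 were most like Fosl1, Dusp11, Pdgfra and 2310061I04Rik most like Junb, and Selenok, Lbh and Vgll4 most like Ier3. A correlation of at least 0.95 with Egr1 was reached by 182 of 11425 genes and with Fosl1 by 1064 of 11426, so likeness over so few libraries is common.

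The relays that lead from Erk to immediate early promoters, the ternary complex factors, Srf, kinases and Creb-type factors, numbered 24 genes. None passed with PD in either cell line. Mapk3, the Erk1 gene that the label iErk1 names, alone passed after Dox withdrawal. It was 2.15-fold lower at 48 hours (1.72 to 2.70) and 2.19-fold lower at 96 hours (1.75 to 2.75), beside 2.13% and 2.07% of all genes as lower. Srf was between 9.19 and 15.5 RPKM in the 6 libraries.

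Among 13 feedback regulators and ETS factors that Erk is known to induce, Spry4, Etv4 and Dusp6 passed as lower with PD in both cell lines, and Spry4 and Dusp6 also at both times without Dox. In KH2 cells with PD, 5 of 13 passed as lower and none as higher (1.22% of all genes passed as lower), with Spry4, an inhibitor of receptor signalling, 25.7-fold lower, Etv4 9.28-fold and the Erk phosphatase gene Dusp6 5.0-fold lower. In Erk KO cells with PD 3 of 13 passed as lower (0.587% of all genes), and after 48 and 96 hours without Dox 9 and 6 of 13 did (2.13% and 2.07%), with Spry4 15.5-fold and 3.73-fold lower and Dusp6 8.31-fold and 3.91-fold lower. The median log2 ratios of the list were −0.62 and −0.46 with PD in KH2 and Erk KO cells and −1.51 and −0.89 after 48 and 96 hours without Dox, and 0, 2, 1 and 1 of the 13 genes had a ratio above 0 in these pairs. In the edgeR fit to the 2 pairs, 9 of 13 fell with PD, beside 2.92% of all genes, among them Spry4 (−4.84 ± 0.193, adjusted p = 2.24e-10). Fos, Fosb and Egr1, in contrast, were above their reference library with PD and below it without Dox.

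Another 42 immediate early genes were mixed. In KH2 cells with PD, 5 passed as higher and 2 as lower, beside 3.86% and 1.22% of all genes. Ccn2, a secreted matrix protein, was 4.0-fold higher, Fosl2, a Fos relative, 2.95-fold higher and Ccn1 2.86-fold higher, while Plk3 was 2.68-fold and Myc 2.15-fold lower. In Erk KO cells with PD, Ccn2 (2.88-fold) and Fosl2 (2.39-fold) passed as higher and Myc (3.06-fold) as lower, beside 1.34% and 0.587% of all genes. After 48 hours without Dox 1 passed as higher and 4 as lower, beside 2.77% and 2.13%, led by Myc, 5.45-fold lower, and Phlda1, 4.31-fold lower. After 96 hours 3 of the 39 with enough reads passed as higher, beside 7.62% of all genes, and 5 as lower, beside 2.07%, led by Ifrd1 at 2.79-fold lower. Myc was thus lower in all 4 pairs, unlike Fos. The medians of the list were 0.10, 0.11, −0.25 and −0.33 on the log2 scale in the 4 pairs. In the edgeR fit to the pairs with and without PD, 12 of 41 tested rose and 3 fell, beside 6.05% and 2.92% of all genes. Against KH2, 19 of the 42 passed as lower in Erk KO cells with Dox and none as higher, beside 21.4% and 2.75% of all genes.

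Among 22 known AP-1 targets, the matrix metalloproteinase genes Mmp3 and Mmp10 passed as higher at both times without Dox and as lower with PD in both cell lines. After 48 hours without Dox, 4 of 22 passed as higher and 1 as lower, beside 2.77% and 2.13% of all genes, with Mmp3 6.65-fold, Mmp10 6.39-fold and Mmp13 5.88-fold higher. Their reads were few, at 21, 17 and 17 with Dox and 144, 112 and 103 without it. The interval of counting error for Mmp3 was 4.19 to 11.1. After 96 hours 4 again passed as higher and 1 as lower, beside 7.62% and 2.07%, with Mmp3 at 15.4-fold higher (9.91 to 25.2). With PD, 2 passed as higher and 4 as lower in KH2 cells, beside 3.86% and 1.22% of all genes. Mmp3 was 4.98-fold lower there (2.78 to 9.57), at 70 reads without and 14 with PD. In Erk KO cells 2 passed as higher and 6 as lower, beside 1.34% and 0.587%, with Mmp3 8.89-fold lower. The medians were −0.12 and −0.40 with PD and 0.23 and 0.50 without Dox.

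Many genes of the actin cytoskeleton that Srf and its MRTF partners control, and many fibroblast markers, passed as higher with PD in KH2 cells. Of 24 actin genes, 14 passed as higher in KH2 cells and 5 in Erk KO cells and none as lower, beside 3.86% and 1.34% of all genes as higher, with Acta2, smooth muscle actin, 6.48-fold and 6.26-fold higher. Of 23 fibroblast markers, 13 and 12 passed as higher and none as lower, beside the same 3.86% and 1.34% of all genes as higher. In the edgeR fit to both pairs, 19 of the 24 actin genes and 18 of the 23 fibroblast markers rose with PD and none fell. Of all genes in that fit, 6.05% rose and 2.92% fell. Col1a1, a collagen of fibroblasts, was at 96.4 and 878 RPKM in KH2 cells without and with PD, at 17.2, 17.7 and 25.9 RPKM in Erk KO cells with Dox and after 48 and 96 hours without it, and at 218 RPKM with PD. Without Dox, none of the actin genes passed at 48 hours and 3 passed as lower at 96 hours (2.07% of all genes). Of the fibroblast markers, none at 48 and 2 at 96 hours passed as higher, beside 2.77% and 7.62% of all genes. At each time 1 passed as lower, beside 2.13% and 2.07%. The part of these genes in the higher Fos, Fosb and Jun with PD was not tested.

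**Figure D4:**
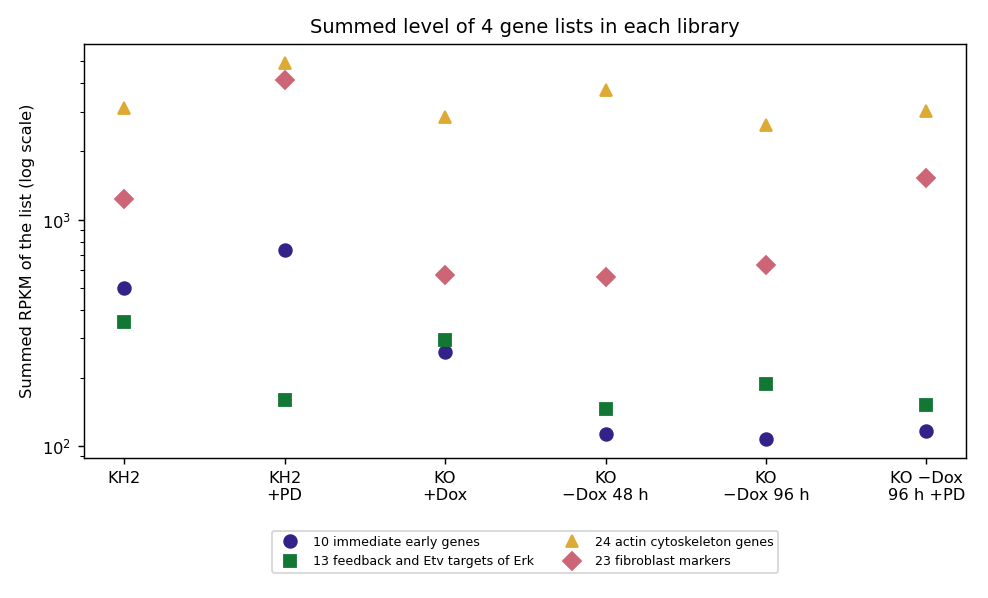
Summed RPKM on a logarithmic axis of the 10 genes, the 13 feedback and ETS factor genes, the 24 actin genes and the 23 fibroblast markers, 1 point per library. With PD in KH2 cells the 10 genes go from 500 to 736 RPKM and the fibroblast markers from 1236 to 4152, while the feedback genes go from 352 to 159.

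Markers of ESCs and of general stress were compared in the same way. The pluripotency factor gene Pou5f1 was between 539 and 769 RPKM in the 6 libraries. Nanog, another, was at 122 and 242 RPKM in KH2 cells without and with PD, at 105 RPKM in Erk KO cells with Dox and at 397, 296 and 387 RPKM in the 3 libraries without Dox. Of 10 ESC markers, none passed as higher and 1 as lower with PD in KH2 cells (all genes: 3.86% and 1.22%). With PD in Erk KO cells none passed in either direction (all genes: 1.34% and 0.587%). At both times without Dox, 1 passed as higher and 1 as lower (all genes: 2.77% and 2.13% at 48 hours, 7.62% and 2.07% at 96 hours). Of 15 heat shock and stress genes, none passed as higher in any of the 4 pairs, and 1 passed as lower with PD in each cell line, 3 after 48 and 2 after 96 hours without Dox, beside 1.22%, 0.587%, 2.13% and 2.07% of all genes as lower.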

How the data were processed

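The 10 genes and all gene lists were chosen with earlier results of these data known. Each condition is 1 polyA RNA library, sequenced as single-end reads per the labels' protocols. The authors deposited a count of unique reads for each gene, per the file headers, and these counts sum to each library total. The deposited RPKM divides that count by gene length and by the total in 1e6 reads. The authors also deposited the percent of each gene's length covered by reads. The submitters' processing notes name mm9. The aligner is not given in the sources used here.

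Tables were joined by gene ID, and a gene without a row was set to 0. Symbols came from RefSeq by gene ID for 18805 of 18857 genes. Depth was 9.09, 9.05, 9.41, 9.70, 9.95 and 9.83 times 1e6 reads for KH2, KH2 with PD, and Erk KO with Dox, after 48 and 96 hours without Dox, and after 96 hours with PD. Folds are ratios of reads scaled to these totals with exact 95% Clopper-Pearson intervals. Intervals and floors of 3 reads cover counting error only, since reads carry no molecular identifiers.

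Pairs of single libraries were described with the size rule and no p-value. edgeR 4.0.16 in R 4.3.3 (quasi-likelihood F test, TMM, at least 20 reads over the libraries fitted, Benjamini-Hochberg threshold 0.05) was fitted to all genes. The fit to 4 libraries had 1 residual degree of freedom and the fit to 6 libraries 2. Their p-values use the spread between these libraries, which the labels do not tie to separate cultures. In the fit to 4 libraries, that spread is the difference in the effect of PD between the cell states. edgeR draws each gene's spread toward that of all genes, by a median prior of 13.8 degrees of freedom for 4 libraries and 5.39 for 6. The p-values thus rest mostly on the spread over all genes. The size rule was run on simulated counts with counting error only, and both fits on simulated counts with the same spread for every gene. Neither shows how calls behave in these data, where each condition is 1 library. Alternatives were DESeq2 1.42.0, other size factors, no filter, other pseudocounts, TMM in the pairs, no block, and leaving out 1 library without Dox. All 10 genes are named, as are Mapk3, Spry4, Dusp6, Etv4, Srf, Myc, Col1a1, Pou5f1 and Nanog, up to 3 genes of each other list that passed in each direction of a comparison, and the 3 genes most like Egr1, Fos, Fosl1, Junb and Ier3. Some genes that this rule would name are not reported here.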

Additional observations from a re-analysis of the deposited data

How the results depend on the processing

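With 1 library per condition, single pairs have no replicate check. Genes under 20 reads over a pair, or under 1 RPKM in both of its libraries, were not compared. The labels give no replicate numbers, so the only block used was cell state, in the fit of PD over both pairs. Fos kept its call in the contrast of PD against withdrawal under all 5 alternatives of that fit (DESeq2, its size factors, no filter, and without the 48 or the 96 hour library). In that contrast genes higher with PD numbered 10, against 61 with DESeq2, 38 without the filter, 741 without the 48 hour library and 18 without the 96 hour library, and genes lower 2, against 24, 16, 1067 and 5. Immediate early genes called higher were 1, against 2, 2, 7 and 2 in the same order, and the difference for Ier3 was −0.0383 without the 48 hour library. For withdrawal, genes higher numbered 20, against 269, 220, 2097 and 74, and genes lower 15, against 156, 164, 1836 and 55, or 26 with DESeq2's size factors. Immediate early genes called lower were 2, against 4 without the filter, 6 without the 48 hour and 4 without the 96 hour library, and 1 (Ier3) was called higher without the 48 hour library. For PD over both pairs, genes higher numbered 894, against 338 with DESeq2, 103 in the six-library fit and 0 without the block, and genes lower 432, against 103, 15 and 0, or 739 with DESeq2's size factors. Immediate early genes higher were 5, against 3, 0 and 0. In the single pairs, genes lower after 48 hours without Dox numbered 242, or 160 at a pseudocount of 1. With PD in Erk KO cells 70 were lower, or 112 at 0.1 and 44 at 1, where 0 in place of 1 immediate early gene was higher. With PD in KH2 cells 156 were lower, or 275 at 0.1. In Erk KO cells with Dox against KH2, 342 were higher and 2662 lower, or 1006 and 1418 with TMM. Egr3 with PD in KH2 cells had a log2 ratio of −0.0051 with TMM. The cause of these changes was not tested.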
